A study of Mus musculus with 8 samples.

Results

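Egr1, Egr2, Egr3, Nr4a1, Nr4a2, Nr4a3, Btg2 and Ier2 are 8 genes of the immediate-early and activation class, and they are described here across the 4 groups of a study of group 2 innate lymphoid cells (ILC2s). They were taken by symbol from an expression table of 22075 genes, and all 8 were found in it. ILC2s are tissue lymphocytes that lack antigen receptors and secrete type 2 cytokines, and interleukin 33 (IL-33), a cytokine released by damaged epithelium, is one of their main activators. The cells came from lungs of C57BL/6 mice that had been exposed briefly to the protease papain, and were grown for about 5 days with IL-2 at 10 ng/ml.

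The groups combined genotype with treatment, and each held 2 libraries. WT cells carried floxed Stat3 alleles (Stat3fl/fl) and no Cre, whereas STAT3-KO cells carried Stat3fl/fl together with Vav-iCre, a Cre expressed across the blood lineages. Any difference between genotypes therefore cannot be told apart from the presence of Vav-iCre. The IL-33 groups then had IL-33 at 10 ng/ml for 2 days, and the medium of the controls during those days is not given in the labels. Nothing in the labels ties the replicates to separate mice or cultures, so p-values measure the spread between these libraries, which may be technical. Because each library is a bulk sample, a lower value can mean fewer cells that express a gene or less RNA per cell, and these cannot be told apart.

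EGR1, EGR2 and EGR3 are zinc finger transcription factors that bind GC-rich sites, and NR4A1, NR4A2 and NR4A3 are orphan nuclear receptors that act without a known physiological ligand. Both families are classically switched on within an hour of receptor signalling, through serum response factor and its ETS partners, CREB and calcium signals, and their mRNAs are short-lived. In T cells EGR2 and EGR3 are known for their part in tolerance, and the NR4A factors for their part in exhaustion and in regulatory T cells. BTG2 is an antiproliferative protein that recruits the CCR4-NOT deadenylase to mRNA and is linked to lymphocyte quiescence, and IER2 is a small nuclear immediate-early protein. The single harvest on day 2 of IL-33 falls long after the classical early peak of these genes, so the values describe levels at that time.

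The bases before the start sites of 4 of the genes are shown because they carry the signal-response elements by which these genes are known, and because Egr2 and Nr4a1 differed in how their RNA followed IL-33 and genotype. Each run holds the 250 bases upstream of a RefSeq transcript start (GRCm38.p6), read 5′ to 3′ on the strand of the gene. Capitals mark matches to the core of the cAMP response element (TGACG, or CGTCA on the other strand), to the full element TGACGTCA, and to the CArG box that serum response factor binds. The windows lie at chr10:67537620-67537869 on the plus strand for Egr2, chr15:101266596-101266845 on the plus strand for Nr4a1, chr2:57124004-57124253 on the minus strand for Nr4a2 and chr1:134079156-134079405 on the minus strand for Btg2.
Egr2: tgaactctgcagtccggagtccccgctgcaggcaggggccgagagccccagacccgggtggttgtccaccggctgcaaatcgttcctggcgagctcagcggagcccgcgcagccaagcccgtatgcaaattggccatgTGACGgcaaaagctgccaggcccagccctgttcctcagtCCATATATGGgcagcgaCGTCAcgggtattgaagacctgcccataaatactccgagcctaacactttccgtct
Nr4a1: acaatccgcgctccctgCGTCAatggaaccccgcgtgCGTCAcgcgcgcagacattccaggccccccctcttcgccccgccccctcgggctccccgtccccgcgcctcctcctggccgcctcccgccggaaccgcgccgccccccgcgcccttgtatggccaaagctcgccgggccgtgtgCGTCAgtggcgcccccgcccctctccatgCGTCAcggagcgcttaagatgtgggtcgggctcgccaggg
Nr4a2: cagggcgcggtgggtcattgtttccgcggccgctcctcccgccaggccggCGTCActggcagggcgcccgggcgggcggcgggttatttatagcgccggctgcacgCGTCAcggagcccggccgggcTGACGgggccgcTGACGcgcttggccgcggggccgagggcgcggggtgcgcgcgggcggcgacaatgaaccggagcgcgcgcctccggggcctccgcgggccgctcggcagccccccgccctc
Btg2: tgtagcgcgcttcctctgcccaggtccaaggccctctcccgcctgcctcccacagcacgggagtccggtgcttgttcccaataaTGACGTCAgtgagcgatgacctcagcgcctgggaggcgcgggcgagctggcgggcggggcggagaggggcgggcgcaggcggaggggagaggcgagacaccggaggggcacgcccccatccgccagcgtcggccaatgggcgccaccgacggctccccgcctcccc

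The RefSeq table had an entry for 5 of the 8 genes, the 4 shown and Nr4a3. Windows with more than 1 base in annotated exons were not shown. This left out Nr4a3 (152 exonic bases) and the Egr2 windows with 24 and 61 exonic bases. Egr2 had 5 start sites, and among the windows left the one shown is the start of the most GENCODE transcripts. Of the other 4 windows, 1 held neither a core nor a CArG box and 1 a CArG box alone. The window shown for Egr2 held 2 cores and a CArG box, which lay from position -73 to -64 counted back from the start. Nr4a1 and Nr4a2 held 4 cores each. In Nr4a1 the match nearest to the start began at position -40, and in Nr4a2 it began at -111. Btg2 held a full element from position -166 to -159, which is counted also as 2 overlapping cores. Over all 32851 windows of this length in the table, on both strands, 17.8% held at least 1 core, 3.90% at least 2 and 0.137% at least 4. A full element was in 1.55% of those windows and a CArG box in 1.47%. Of 2 EGR sites searched, GCGTGGGCG and GCGGGGGCG, the second was found in Nr4a1 on the reverse strand (CGCCCCCGC, from -60 to -52) and is in 2.57% of all windows, against 0.536% for the first. The NR4A monomer site AAAGGTCA (1.34% of windows) and the STAT site TTCNNNGAA (7.02% of windows) had no match in these 4 windows. The matches are descriptions of sequence, and no binding was measured in this study.

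Stat3 itself followed the genotype labels. It was 41.7 and 50.7 FPKM (fragments per kilobase, a level corrected for gene length and library depth) in WT control, 15.3 and 16.0 in STAT3-KO control, 49.0 and 55.3 in WT with IL-33, and 8.03 and 9.69 in STAT3-KO with IL-33. The libraries held 15843685 to 19905818 reads, as the steps between low values show, and replicates correlated at 0.971 to 0.983. All 12 ILC2 markers, among them Gata3, Il1rl1, Klrg1 and Il5, averaged at least 1 FPKM in 3 groups and 11 did so in STAT3-KO with IL-33.

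Markers of other cells moved with the groups in part. Of 9 macrophage and monocyte markers, 4 were in the table, and their summed level was 0.312 to 1.21 FPKM in WT control, 0.595 to 2.66 in STAT3-KO control, 5.87 to 6.78 in WT with IL-33 and 3.23 to 6.74 in STAT3-KO with IL-33. Cd68 made up most of it, Lyz2 was at 0 in 3 of the 4 groups, and Csf1r, Fcgr1, Itgam, Marco and Mertk were not analysed here. The dendritic cell list, led by Xcr1 and with 5 of 7 genes in the table, ran at 2.30 to 3.24 FPKM in the controls and 4.88 to 7.37 with IL-33. The mast cell and basophil list, with 3 of 6 genes in the table and led by Cpa3 in 3 groups, summed to 299 to 326 FPKM in WT control, 111 to 140 in STAT3-KO control, 127 to 155 in WT with IL-33 and 7.49 to 8.68 in STAT3-KO with IL-33. The B cell list, with 2 of 5 genes in the table and led by Cd79b, was at 7.92 to 8.15 FPKM in WT control and 3.27 to 4.13 in STAT3-KO control. With IL-33 it was at 13.05 to 13.9 in WT and 19.6 to 21.9 in STAT3-KO, the group in which Egr1, Egr2 and Egr3 were highest. The list of NK cells and ILC1, with 5 of 6 genes in the table and led by Tbx21 in 3 groups, was at 4.42 to 5.62 FPKM in WT control, 22.6 to 23.2 in STAT3-KO control, 0.649 to 1.06 in WT with IL-33 and 4.44 to 4.98 in STAT3-KO with IL-33. The ILC3 list, with 3 of 4 genes in the table, was at 2.26 to 4.52 FPKM in the controls and 0.259 to 0.863 with IL-33. The epithelial list, with 3 of 6 genes in the table, was at 5.27 to 10.6 FPKM in the controls. With IL-33 it was at 5.40 to 6.14 in WT and 1.72 to 1.93 in STAT3-KO. The stromal and endothelial list, led by Pecam1, was at 16.1 to 19.2 FPKM in the controls and 21.3 to 27.0 with IL-33. The T cell list, led by Cd3g, was at 7.3 to 10.0 FPKM in the controls and 4.9 to 7.2 with IL-33. The granulocyte list never exceeded 0.907 FPKM. The part of these cells in the results below was not tested.

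The 8 genes fell into 3 ranges of expression. Btg2 and Ier2 were abundant, with Btg2 at rank 158 to 602 and Ier2 at rank 245 to 645 of the 22075 genes. Egr1, Egr2, Egr3 and Nr4a1 stayed below 10 FPKM in every library, and Nr4a2 and Nr4a3 never exceeded 0.220 FPKM. A gene was tested if it had at least 1 FPKM in at least 2 libraries, and 11877 genes did. Of the 8 genes, 6 were tested and Nr4a2 and Nr4a3 were not. Nr4a1 passed this filter only through the 4 libraries with IL-33, Egr3 through 3 of these (both STAT3-KO and WT replicate 1), and Egr2 only through the 2 STAT3-KO libraries with IL-33. The tests of IL-33 on these genes, and for Egr2 and Egr3 also those of genotype with IL-33 and of the difference between responses, were thus made because the genes were high there. Their p-values are given as descriptions and do not count as independent support. The same holds for Atf3, Lag3 and Ctla4, named below, and for counts over lists that hold such genes.

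**Figure D1:**
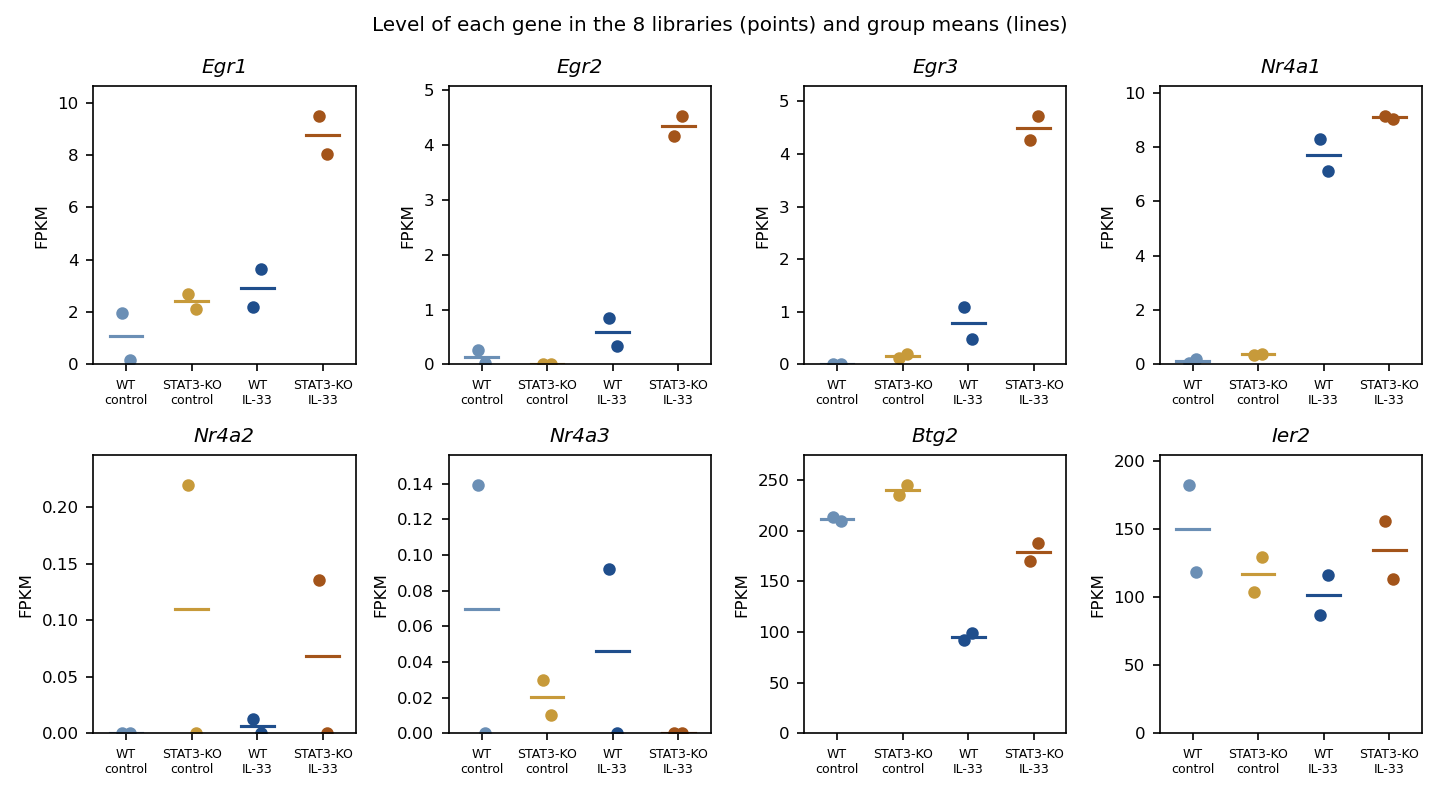
Level of each of the 8 genes in FPKM (vertical axis, a separate linear scale for each gene) in the 4 groups (horizontal axis); points are single libraries and lines are means of 2. The STAT3-KO libraries with IL-33 stand highest for Egr1, Egr2 and Egr3, both IL-33 groups stand high for Nr4a1, and the WT libraries with IL-33 stand lowest for Btg2.

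Among the EGR factors, Egr1 had the highest summed reads and the widest spread. Its FPKM was 1.98 and 0.169 in WT control, 2.69 and 2.13 in STAT3-KO control, 2.21 and 3.66 in WT with IL-33, and 9.51 and 8.03 in STAT3-KO with IL-33. Both STAT3-KO libraries with IL-33 lay above all others, while the WT control libraries, with 149 and 12 reads, lay far apart. None of the 4 pairs of groups compared overlapped. WT control (1.07 ± 1.28, SD, n = 2) and STAT3-KO control (2.41 ± 0.40) did not differ in the test below, and WT with IL-33 (2.93 ± 1.03) lay within its own SD of STAT3-KO control. The group of STAT3-KO with IL-33 stood apart at 8.77 ± 1.04.

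In limma on log2(FPKM + 1), where a difference understates the fold of a low gene, Egr1 rose with IL-33 in STAT3-KO by 1.52 ± 0.40 (SE), 3.64-fold in mean FPKM, with an adjusted p of 0.0130. In WT its difference was 1.05 ± 0.40 (adjusted p = 0.0700, 95% interval 0.14 to 1.96), which did not pass. With IL-33, Egr1 was higher in STAT3-KO than in WT by 1.33 ± 0.40, or 2.99-fold (adjusted p = 0.0333). In the controls the genotype difference of 0.86 ± 0.40 did not pass (adjusted p = 0.563, 95% interval -0.05 to 1.78). The responses to IL-33 differed between genotypes by 0.47 ± 0.56, which did not pass either (adjusted p = 0.614, 95% interval -0.82 to 1.76). These 2 calls of Egr1 rest on few libraries. The rise in STAT3-KO lost its call without STAT3-KO control replicate 2 (adjusted p = 0.0634) or STAT3-KO IL-33 replicate 1 (0.0702), and the genotype call with IL-33 was lost without any single one of the 4 IL-33 libraries (adjusted p = 0.0674 to 0.178). Without WT control replicate 1, the library with 149 reads, the WT response was 1.73 and passed (adjusted p = 0.00491), and without replicate 2, the library with 12 reads, it was 0.38 and did not (adjusted p = 0.332).

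Egr2 was close to absent from the controls. It was at 0.263 and 0.0186 FPKM in WT control (15 reads and 1 read), 0 and 0 in STAT3-KO control, 0.843 and 0.344 in WT with IL-33 (57 and 19 reads), and 4.17 and 4.54 in STAT3-KO with IL-33 (231 and 274 reads). Every STAT3-KO library with IL-33 lay above every other library, and the groups compared did not overlap. WT with IL-33 (0.593 ± 0.353) and WT control (0.141 ± 0.173) were neighbours in level and did not differ beyond their spread in the test.

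The level of Egr2 in STAT3-KO with IL-33 was 7.34-fold that in WT with IL-33, a log2 difference of 1.77 ± 0.24 (adjusted p = 0.00102). Against STAT3-KO control, where no read was seen, Egr2 was at least 81.0-fold higher with the floor set at 3 reads per library, and the fitted difference was 2.42 ± 0.24 (adjusted p = 9.6e-05). In WT the difference with IL-33 was 0.47 ± 0.24 and did not pass (adjusted p = 0.155, 95% interval -0.07 to 1.02). The difference between the responses was 1.95 ± 0.34 (adjusted p = 0.00832). All these values come from a gene that entered the test through the STAT3-KO IL-33 libraries alone. In the controls the genotypes differed by -0.18 ± 0.24 (adjusted p = 0.906). With 1 STAT3-KO IL-33 library left out, Egr2 no longer reached the filter and was not tested, and in the other alternatives run, 14 or 15 per result, the 3 calls passed.

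Egr3, the closest relative of Egr2 in function, had the same order of groups with IL-33 and different values at rest. Its FPKM was 0 and 0 in WT control, 0.121 and 0.198 in STAT3-KO control (9 and 14 reads), 1.09 and 0.488 in WT with IL-33 (96 and 35 reads), and 4.27 and 4.73 in STAT3-KO with IL-33 (307 and 370 reads). The STAT3-KO libraries with IL-33 were again above all others, both WT libraries with IL-33 were above all controls, and no groups compared overlapped. STAT3-KO control (0.160 ± 0.054) and WT control were neighbours that did not differ in the test (0.21 ± 0.23, adjusted p = 0.874).

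For IL-33 in WT Egr3 passed (0.82 ± 0.23, adjusted p = 0.0247), where it was at least 18.9-fold higher than the floor of 3 reads per library. That call was lost without WT control replicate 1 or 2 or WT IL-33 replicate 1 (adjusted p = 0.0694, 0.0640 and 0.164). In STAT3-KO the rise was 2.24 ± 0.23, or 28.2-fold (adjusted p = 0.000121), and with IL-33 the genotypes differed by 1.64 ± 0.23, or 5.69-fold (adjusted p = 0.00125). The responses differed by 1.42 ± 0.33 (adjusted p = 0.0233), for a gene that entered the test through IL-33 libraries. Of 16 alternative settings this last call held in 6, with an adjusted p between 0.018 and 0.393, and it was lost without any one of WT control replicate 1, WT IL-33 replicate 2, either STAT3-KO control or either STAT3-KO IL-33 library (adjusted p = 0.0529 to 0.0837).

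Summed over the 3 EGR genes, which can be added because FPKM is per gene length, the level was 2.24 and 0.187 in WT control, 2.81 and 2.32 in STAT3-KO control, 4.14 and 4.49 in WT with IL-33, and 17.9 and 17.3 in STAT3-KO with IL-33. The make-up of the family changed with the groups. Egr1 made up 88.3% to 95.7% of the sum in the 4 control libraries, 53.3% and 81.5% in WT with IL-33, and 53.0% and 46.4% in STAT3-KO with IL-33. The 2 WT libraries with IL-33 had nearly the same sum from different parts, since replicate 1 had more Egr2 and Egr3 and replicate 2 more Egr1.

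**Figure D2:**
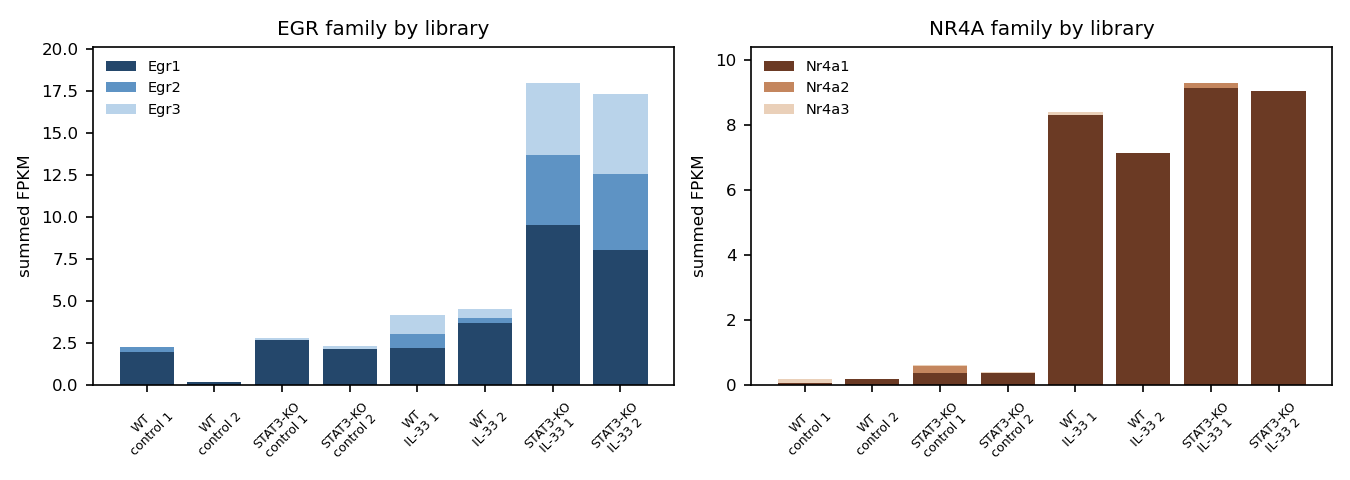
Summed FPKM (vertical axis, linear from 0) of the EGR genes (left) and the NR4A genes (right) in each of the 8 libraries (horizontal axis), with the parts of the single genes stacked. The EGR sum reaches 17.9 and 17.3 in STAT3-KO with IL-33, where Egr2 and Egr3 are a large part of it; the NR4A sum is nearly all Nr4a1 in both IL-33 groups.

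Of the NR4A receptors, Nr4a1 carried nearly all of the signal. It was at 0.0482 and 0.179 FPKM in WT control (2 and 7 reads), 0.361 and 0.378 in STAT3-KO control (15 and 15 reads), 8.31 and 7.13 in WT with IL-33 (409 and 287 reads), and 9.15 and 9.03 in STAT3-KO with IL-33 (369 and 397 reads). All 4 libraries with IL-33 lay far above all 4 controls. Both controls were low, WT below STAT3-KO, and both IL-33 groups high in the same order, and in neither treatment did the genotypes differ in the test.

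Nr4a1 rose with IL-33 by 2.97 ± 0.18 in WT (adjusted p = 1.48e-05) and by 2.88 ± 0.18 in STAT3-KO (adjusted p = 9.47e-06). As ratios of mean FPKM these were 68.1-fold and 24.6-fold, and they rest on control totals of 9 and 30 reads. The responses differed by -0.09 ± 0.26 (adjusted p = 0.854), with a 95% interval from -0.68 to 0.51. Over 17 alternative settings this difference ran from -0.97 to 0.011 and passed in 0 of them, so its size depends on the setting. With IL-33 the genotypes differed by 0.21 ± 0.18 (adjusted p = 0.417, 95% interval -0.21 to 0.63), and in the controls by 0.30 ± 0.18 (adjusted p = 0.716, 95% interval -0.12 to 0.72). Nr4a1 entered the test only through the 4 IL-33 libraries, so the p-values of its rises are descriptions. Both rises passed in all 18 alternative settings, which reuse the same libraries and are no independent support.

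Nr4a2 and Nr4a3 were at or near 0. Nr4a2 was at 0.220 FPKM (15 reads) in STAT3-KO control replicate 1, 0.136 (9 reads) in STAT3-KO IL-33 replicate 1 and 0.0124 (1 read) in WT IL-33 replicate 1, and had no read in the other 5 libraries. Nr4a3 was at 0.139 FPKM (14 reads) in WT control replicate 1, 0.0923 (11 reads) in WT IL-33 replicate 1 and 0.0298 and 0.0104 (3 reads and 1 read) in STAT3-KO control, and had none in the other 4. In each group with reads at all, apart from Nr4a3 in STAT3-KO control, a single replicate held them, so no difference between groups could be seen at this depth. In the 4 IL-33 libraries Nr4a1 made up 98.5% to 100% of the NR4A sum. The 4 cores in the Nr4a2 window shown above were as many as in the Nr4a1 window. A link of these matches to the RNA levels was not tested.

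Btg2 was lower with IL-33 and varied little between replicates. It was at 213 and 209 FPKM in WT control, 235 and 245 in STAT3-KO control, 92.0 and 98.7 in WT with IL-33, and 170 and 187 in STAT3-KO with IL-33, on 4407 to 10851 reads per library. The 2 WT libraries with IL-33 were the lowest, the STAT3-KO libraries with IL-33 came next, and no groups compared overlapped. At the top of the order, WT control (211 ± 2.96) and STAT3-KO control (240.1 ± 6.95) differed by 0.18 ± 0.09, which did not pass (adjusted p = 0.620, 95% interval -0.03 to 0.39). The step from STAT3-KO with IL-33 (179 ± 12.2) up to WT control was not tested.

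With IL-33, Btg2 fell by 1.14 on the log2 scale in WT (SE 0.09, adjusted p = 5.64e-05), a mean FPKM 54.9% lower. In STAT3-KO it fell by 0.42 (SE 0.09, adjusted p = 0.00561), a mean 25.5% lower. The median of all tested genes also moved, to -0.14 in WT and -0.18 in STAT3-KO, and a rescaling by the median of ratios brought both medians close to 0. On that scale the difference of Btg2 in STAT3-KO was -0.20 and did not pass (adjusted p = 0.113), while the fall in WT passed in all 18 alternatives. Between genotypes with IL-33, Btg2 was 1.88-fold higher in STAT3-KO (0.90 ± 0.09, adjusted p = 0.000259), and the responses differed by 0.72 ± 0.13 (adjusted p = 0.0102). Both of these passed in every alternative run, 18 and 17 in number.

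Ier2 was abundant and varied between replicates. Its FPKM was 182 and 118 in WT control, 104 and 129 in STAT3-KO control, 86.5 and 116 in WT with IL-33, and 156 and 113 in STAT3-KO with IL-33. The WT libraries with IL-33 lay just below the WT controls, and in the other 3 pairs of groups the libraries overlapped. The means rose from 101 ± 20.97 in WT with IL-33 over 117 ± 17.9 in STAT3-KO control and 134 ± 30.4 in STAT3-KO with IL-33. WT control was highest at 150.1 ± 45.4. Of the steps between neighbours in this order, only that between the STAT3-KO groups was tested, and it did not pass.

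None of the 5 comparisons called Ier2. The difference with IL-33 was -0.54 ± 0.24 in WT (adjusted p = 0.112, 95% interval -1.10 to 0.01) and 0.19 ± 0.24 in STAT3-KO (adjusted p = 0.530, 95% interval -0.36 to 0.75). The genotypes differed by -0.34 ± 0.24 in the controls (adjusted p = 0.774) and by 0.40 ± 0.24 under IL-33 (adjusted p = 0.244), and the responses by 0.74 ± 0.34 (adjusted p = 0.178, 95% interval -0.05 to 1.52). Without WT control replicate 2 the difference in WT was -0.86 and passed (adjusted p = 0.0353), and without replicate 1 it was -0.23 and did not (adjusted p = 0.513).

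**Figure D3:**
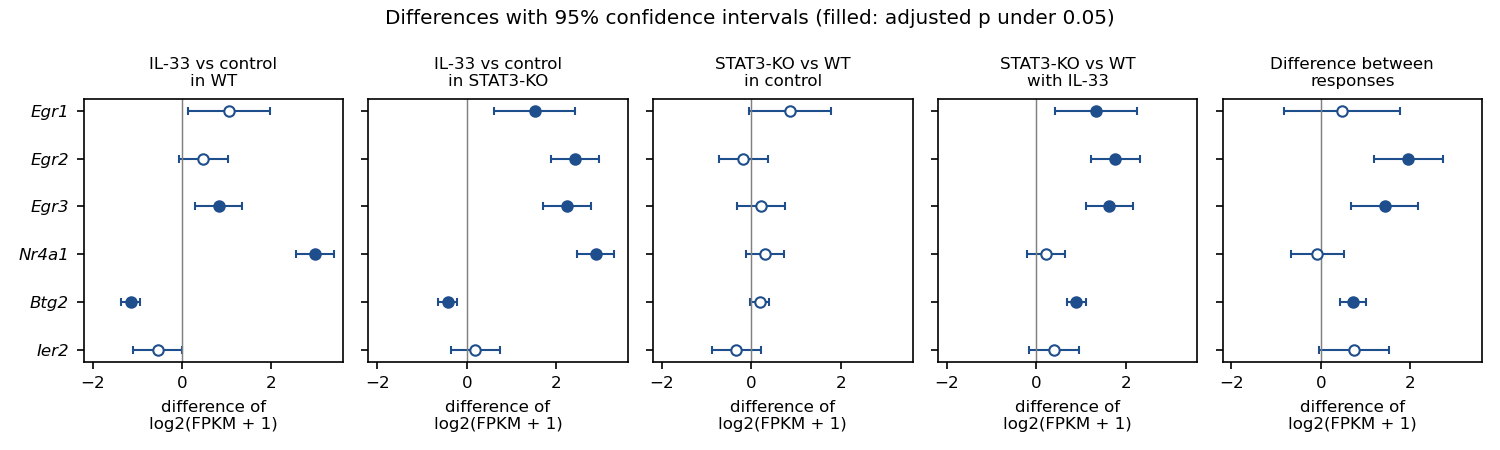
Differences of log2(FPKM + 1) (horizontal axis) for the 6 tested genes (vertical axis) in the 5 comparisons, 1 panel each; bars are 95% confidence intervals from limma and filled points have an adjusted p under 0.05. No point is filled for the genotypes in control, and Egr2, Egr3 and Btg2 are filled for the difference between responses.

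Counted over the comparisons, which share libraries, the calls of the 6 tested genes stood beside high rates over all genes. For IL-33 in WT, Egr3 and Nr4a1 were higher and Btg2 lower, where 36.1% of the 11877 tested genes were called in either direction (14.5% higher, 21.6% lower). For IL-33 in STAT3-KO, Egr1, Egr2, Egr3 and Nr4a1 were higher and Btg2 lower, where 51.0% were called (20.4% higher, 30.6% lower). Those shares are the background for the counts of 3 and 5, and the choice of genes that passed through the IL-33 libraries adds to both. The groups did not overlap for 70.4% of all genes in WT and 77.0% in STAT3-KO, beside all 6 tested genes in WT and 5 of them, without Ier2, in STAT3-KO. Under the rescaling by the median of ratios, the calls over all genes were 2312 higher and 1867 lower in WT, against 1724 and 2561 here, and 3161 and 2742 in STAT3-KO, against 2425 and 3638. Without STAT3-KO IL-33 replicate 1 the count of 5 in STAT3-KO was 3, since Egr1 lost its call and Egr2 was not tested. With a trend on gene length removed the calls over all genes were 2837 and 2793 in STAT3-KO.

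Between genotypes in the controls, limma called none of the 6, none had an unadjusted p under 0.05, and 0.463% of all genes were called (0.253% higher). The groups did not overlap for 5 of the 6 genes, all but Ier2, and for 38.0% of all genes. With IL-33, Egr1, Egr2, Egr3 and Btg2 were higher in STAT3-KO and none was lower, where 32.6% of genes were called (16.3% higher, 16.4% lower), and 66.9% had groups that did not overlap, as did the same 5 genes. The responses differed for Egr2, Egr3 and Btg2, all more positive in STAT3-KO, where 15.1% were called (6.72% higher, 8.43% lower). With 1 or the other STAT3-KO IL-33 library left out, Egr2 was not tested and Egr1, and Egr3 for the responses, lost their calls, so the count of 4 with IL-33 was 2 and the count of 3 for the responses was 1. For this last comparison the calls over all genes were 798 and 1001, and 513 and 982 after rescaling each library to the same summed FPKM.

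Genes of the same response class did not move as one. Of 39 other immediate-early genes in the table, 32 were tested. With IL-33 in WT 13 rose and 4 fell, where 14.5% of all tested genes rose and 21.6% fell. Their median was 0.26 against -0.14 over all genes. In STAT3-KO 12 rose and 10 fell, where 20.4% of all rose and 30.6% fell, with a median of -0.01 against -0.18. Atf3, a stress-induced repressor of the CREB family, rose in both genotypes, with a response larger in STAT3-KO by 2.24 (adjusted p = 0.0124). Atf3 passed the filter only through libraries with IL-33, so its p-value is a description. Junb, an AP-1 subunit, went from 87.8 to 447 FPKM in WT and from 89.0 to 449.9 in STAT3-KO, and its responses differed by -0.005 (adjusted p = 0.987). Gadd45b, a stress-response gene, went from 4.22 to 44.2 FPKM in WT and from 4.50 to 77.95 in STAT3-KO.

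Some of this class were lower with IL-33 in STAT3-KO. Cd69, an early activation antigen that keeps lymphocytes in tissue, rose in WT (15.2 to 36.4 FPKM, 1.21, adjusted p = 0.000282) and fell in STAT3-KO (17.2 to 11.9, -0.49, adjusted p = 0.0143), and the responses differed by -1.70 (adjusted p = 0.00138). Id3, an inhibitor of E proteins that EGR factors are known to induce in thymocytes, fell from 23.97 to 2.97 FPKM in STAT3-KO (-2.73, adjusted p = 7.7e-05) and was at 29.6 and 37.0 in WT without and with IL-33. Id2, its paralog, was lower in STAT3-KO than in WT with IL-33 by 1.22 on the log2 scale (-1.22, adjusted p = 4.1e-05). Between genotypes with IL-33, 9 of the 32 were higher and 9 lower, where 16.3% of all tested genes were higher and 16.4% lower. In the controls 1 was called, where 0.463% of all tested genes were. It was Plk2, a polo-like kinase, which was higher in STAT3-KO by 1.23 (adjusted p = 0.0116).

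**Figure D4:**
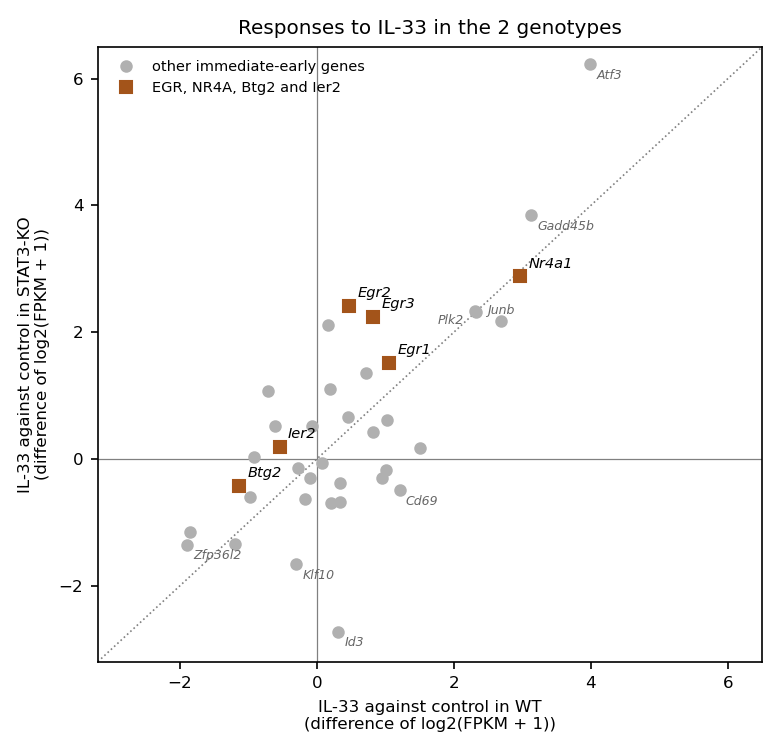
Difference with IL-33 in STAT3-KO (vertical axis) against that in WT (horizontal axis), both of log2(FPKM + 1), for the 6 tested genes (squares) and 32 other immediate-early genes (circles); the dotted line marks equal responses. Egr2 and Egr3 lie above the line, Nr4a1 and Junb lie on or near it, and Id3 and Cd69 lie below it.

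The co-regulators of the EGR factors gave 4 tested genes. Nab2, a corepressor that EGR factors induce and that in turn restrains them, rose from 2.12 to 6.84 FPKM in WT (1.35, adjusted p = 0.00245) and from 2.08 to 11.45 in STAT3-KO (2.02, adjusted p = 0.000185). With IL-33 it was higher in STAT3-KO than in WT by 0.67 (adjusted p = 0.0493). Nab1, its relative, rose in WT (2.01 to 5.59 FPKM, 1.20, adjusted p = 0.0114). Sp1 and Sp3, which share GC-rich sites with EGR factors, fell in both genotypes. In all, 2 rose and 2 fell in WT, where 14.5% of all tested genes rose and 21.6% fell. In STAT3-KO 1 rose and 2 fell, where 20.4% of all rose and 30.6% fell. The medians were 0.24 and -0.27, against -0.14 and -0.18 over all genes.

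Rxra and Rxrb, nuclear receptors that can pair with NR4A1 and NR4A2, were tested for the NR4A family. Rxra fell from 2.82 to 0.763 FPKM with IL-33 in WT (-1.12, adjusted p = 0.00196) and rose from 2.375 to 15.3 in STAT3-KO (2.27, adjusted p = 2.9e-05). Its responses differed by 3.38 (adjusted p = 0.000279). Rxrb was at 4.80 to 6.46 FPKM in the 4 groups and was not called.

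The BTG/TOB family and the CCR4-NOT complex through which BTG2 acts gave 11 tested genes. Of these, 1 rose and 3 fell in WT, where 14.5% of all tested genes rose and 21.6% fell. In STAT3-KO 2 rose and 4 fell, where 20.4% of all rose and 30.6% fell. The medians were -0.07 and -0.31, against -0.14 and -0.18 over all genes. Btg1, the closest paralog of Btg2 and its partner in lymphocyte quiescence, fell from 20.7 to 11.2 FPKM in WT (-0.82, adjusted p = 0.00525) and from 21.7 to 7.36 in STAT3-KO (-1.44, adjusted p = 0.000185). With IL-33 Btg1 was lower in STAT3-KO than in WT (-0.55, adjusted p = 0.0307), whereas Btg2 was higher there. Tob1, another antiproliferative relative, was higher in STAT3-KO with IL-33 by 0.78 (adjusted p = 0.0181). Cnot1, the scaffold of the complex, rose in WT (2.30 to 5.92 FPKM) and fell in STAT3-KO (3.39 to 1.40), and its responses differed by -1.94 (adjusted p = 0.00447). Cnot6l, a catalytic deadenylase subunit, fell in both (-1.74 and -1.15).

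The other 2 tested genes with an Ier symbol were called for IL-33 in each genotype, where 36.1% (WT) and 51.0% (STAT3-KO) of all tested genes were. Ier3, an early-response gene tied to survival under NF-kB, rose from 5.89 to 57.4 FPKM in WT (3.09, adjusted p = 8.27e-06) and from 7.91 to 31.2 in STAT3-KO (1.86, adjusted p = 6.5e-05). Ier5 fell in WT (6.01 to 2.52 FPKM, -0.995, adjusted p = 0.00768) and rose in STAT3-KO (4.65 to 7.78, 0.64, adjusted p = 0.0347), and its responses differed by 1.63 (adjusted p = 0.0105).

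The lists of upstream routes held more falls than rises, as did all tested genes on this scale (21.6% lower and 14.5% higher in WT, 30.6% and 20.4% in STAT3-KO), a balance that turned for all genes under the median of ratios. The medians below stand beside -0.14 in WT and -0.18 in STAT3-KO over all genes. Of 12 serum response factor partners and CREB factors, 2 rose and 4 fell in WT and 1 rose and 5 fell in STAT3-KO, with medians of -0.45 and -0.43. Srf was at 2.015 to 3.23 FPKM in the 4 groups and was not called. Crem, which makes both activators and early repressors of cAMP response elements, rose in WT (9.47 to 58.3 FPKM, 2.501, adjusted p = 3.92e-06) and in STAT3-KO (11.5 to 30.4, 1.33, adjusted p = 6.1e-05), with a smaller response in STAT3-KO (-1.17, adjusted p = 0.00421). Elk3, an ETS partner of serum response factor, rose in WT (17.2 to 34.1 FPKM, 0.95, adjusted p = 0.00187), and its responses differed by -0.80 (adjusted p = 0.0383). Elk4 and Crtc3 fell in both genotypes.

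Among 9 calcium and NFAT genes, 1 rose and 4 fell in WT and 1 rose and 6 fell in STAT3-KO, with medians of -0.75 and -0.68. Orai1, the pore of the store-operated calcium channel, was the one that rose (0.72 and 0.93), while its sensor Stim1 fell from 30.3 to 12.5 FPKM in WT and from 33.1 to 12.7 in STAT3-KO (-1.21 and -1.32). Of 12 genes of the RAS-ERK route, 0 rose and 7 fell in WT, and 1 rose and 5 fell in STAT3-KO, with medians of -0.64 and -0.22. Rasgrp1, a RAS activator of lymphocytes, went from 59.9 to 2.77 FPKM in STAT3-KO (-4.02, adjusted p = 3.1e-05) and from 55.9 to 32.0 in WT (-0.66, adjusted p = 0.137), and the responses differed by -3.35 (adjusted p = 0.00317).

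Genes tied to EGR2 and EGR3 in T cell tolerance moved in both directions with IL-33. Of 10 tested, 3 rose and 3 fell with IL-33 in WT, where 14.5% of all tested genes rose and 21.6% fell. In STAT3-KO 2 rose and 5 fell, where 20.4% of all rose and 30.6% fell. With IL-33, where Egr2 and Egr3 were higher in STAT3-KO, 0 of the 10 were higher there and 5 were lower. Over all tested genes 16.3% were higher and 16.4% lower. The median of the 10 was -0.79 against 0.01 over all genes. A link of these genes to Egr2 and Egr3 was not tested, and the list was chosen with earlier results known. The 5 were Dgkz, a diacylglycerol kinase, the E3 ligases Rnf128 and Itch, Ndrg1, a stress-response gene, and Socs3, a feedback inhibitor that STAT3 is known to induce. Rnf128 fell from 739 to 318 FPKM in WT and from 831.5 to 195 in STAT3-KO. Itch was at 13.3 and 15.6 FPKM in WT and went from 14.4 to 2.02 in STAT3-KO (-2.35, adjusted p = 0.00107). Socs3 rose from 5.87 to 179 FPKM in WT and from 2.96 to 15.6 in STAT3-KO. The cell cycle inhibitor Cdkn1a rose in both (1.90 and 1.54).

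Genes tied to NR4A factors in exhausted and regulatory T cells gave 11 tested genes. Of these, 8 rose and 2 fell in WT, where 14.5% of all tested genes rose and 21.6% fell. In STAT3-KO 6 rose and 2 fell, where 20.4% of all rose and 30.6% fell. The medians were 0.79 and 1.41, against -0.14 and -0.18 over all genes. Lag3 and Ctla4 passed the filter only through libraries with IL-33, so their part in these counts is a description. Pdcd1, which encodes the PD-1 receptor, rose from 35.2 to 148 FPKM in WT (2.04, adjusted p = 5.44e-05) and from 52.0 to 184 in STAT3-KO (1.80, adjusted p = 6.5e-05). Irf4 rose from 7.03 to 25.55 FPKM and from 13.4 to 50.9, and Batf from 22.2 to 64.3 and from 26.6 to 73.6. Tox fell in both genotypes, from 23.1 to 5.97 FPKM and from 27.5 to 11.5.

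The inhibitory receptors differed among themselves between genotypes with IL-33. Havcr2, which encodes TIM-3, was higher in STAT3-KO (18.2 against 5.80 FPKM, 1.499, adjusted p = 0.00174), as was Lag3 (5.04 against 0.788 FPKM, 1.79, adjusted p = 0.0013). Ctla4 was lower (0.473 against 8.37 FPKM, -2.66, adjusted p = 0.000163). Lag3 and Ctla4 entered the test only through libraries with IL-33, Ctla4 only through those of WT. The p-values of these 2 genes are therefore descriptions. Of the 11 genes, 5 were higher and 2 lower, where 16.3% of all tested genes were higher and 16.4% lower. Their median was 0.31 against 0.01 over all genes. Nr4a1 was not called in that comparison, and a link of Nr4a1 to these genes was not tested.

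Over the 8 libraries, the likeness of patterns was taken as the root mean square difference between log2(FPKM + 1) values, each gene centred on its own mean, where a smaller value means more alike. Egr2 and Egr3 lay 0.1735 apart, Egr1 lay 0.553 from Egr2 and 0.524 from Egr3, and Nr4a1 lay 0.865 to 1.03 from the EGR genes. Btg2 and Ier2 lay 0.4605 apart. The genes nearest to Egr3 were Slamf6, a receptor of lymphocytes, at 0.0666, Anxa4 at 0.134 and Mrpl45 at 0.136. Slamf6 averaged 0.0618 FPKM in WT and 0.181 in STAT3-KO controls, and 0.880 in WT and 4.27 in STAT3-KO with IL-33, beside 0, 0.160, 0.791 and 4.50 for Egr3 in that order. The nearest genes, here and in the next paragraph, were picked by this likeness, so their similar patterns follow from the choice.

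The genes nearest to Egr2 were Gbp11 at 0.138, Robo3 at 0.165 and Frmd5 at 0.168, and those nearest to Egr1 were Prrg2 at 0.274, Ica1 at 0.318 and Tspan3 at 0.323. Akr1b8, an aldo-keto reductase, at 0.215, Gpr55, a receptor for lysophospholipids, at 0.218 and Palld, an actin-binding protein, at 0.227 were nearest to Nr4a1, and each was below 0.5 FPKM in both controls and above 4 FPKM in both IL-33 groups. Nearest to Btg2 were Mblac2 at 0.0941, Ado at 0.113 and Rnf169 at 0.122, and nearest to Ier2 were R74862 at 0.104, Rabl6 at 0.114 and Tmem259 at 0.126.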

How the data were processed

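RNA from 8 libraries of cultured lung ILC2s was analysed from 1 table of FPKM values that the authors deposited. They were made with Bowtie2 and RSEM on GRCm38, per the submitters' processing notes. Versions, annotation release, strand setting and filters are not given in the sources used here, and without strand a gene and an antisense partner cannot be told apart. Each value times the merged exon length (GENCODE M21) was checked against whole reads. In each library 93.5% to 94.6% of values worth up to 100 reads came within 0.02 of a whole number, which gave depth and read numbers; 3 reads in 1 kb correspond to 0.151 to 0.189 FPKM, which covers counting error only. For Nr4a1 the length that gave whole reads was 2474 bases, against 3509 merged.

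Tests used limma 3.58.1 in R 4.3.3 on log2(FPKM + 1), with a pseudocount of 1, 1 mean per group over all 8 libraries (4 residual degrees of freedom, median prior 4.46) and eBayes with a trend. They covered the 11877 genes with at least 1 FPKM in at least 2 libraries, were two-sided, and were adjusted by Benjamini-Hochberg over all tested genes and called at 0.05. The procedure was tested on simulated data, with changes only in genes of at least 1 FPKM in WT control and 1 fixed dispersion. That test does not cover genes near 0 in WT control, such as Egr2, Egr3 and Nr4a1, or a wide spread between replicates. Promoter windows came from RefSeq. Named genes were the 8, the 3 nearest to each tested one, and up to 4 called genes of smallest p per list and comparison; Srf, which was not called, was added after its values were seen. The members and lists were chosen with earlier results of these data known. Alternatives changed the pseudocount, filter, scaling, trend, samples fitted, length correction, block and libraries. Python 3.11.15, pandas 2.3.3, numpy 2.4.6 and matplotlib 3.10.9 made the tables and plots.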

Additional observations from a re-analysis of the deposited data

Results flagged for a closer look

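For 3 of the 6 tested genes the response to IL-33 differed between the genotypes in limma's test of the difference itself, where 15.1% of all tested genes were called. Egr2 differed by 1.95 ± 0.34 (SE, adjusted p = 0.00832), Egr3 by 1.42 ± 0.33 (adjusted p = 0.0233) and Btg2 by 0.72 ± 0.13 (adjusted p = 0.0102), each on log2(FPKM + 1) and each more positive in STAT3-KO. On this scale the rise of Egr2 and Egr3 was larger in STAT3-KO, and the fall of Btg2 was smaller. As a fold the rise of Egr3 was at least 18.9 in WT and 28.2 in STAT3-KO. Egr3 had no read in WT control, so these 2 folds cannot be ranked. Egr2 entered the test only through the STAT3-KO libraries with IL-33 and Egr3 only through IL-33 libraries, so their p-values are descriptions. The Egr3 call held in 6 of 16 alternatives, and with 1 or the other STAT3-KO IL-33 library left out the count of 3 was 1, Btg2. The summed levels of mast cell and basophil, macrophage, dendritic cell, B cell, NK cell and ILC1, and ILC3 markers also moved with the groups. So did those of T cell, epithelial, and stromal and endothelial markers. The B cell list was highest in STAT3-KO with IL-33 (19.6 to 21.9 FPKM, against 13.05 to 13.9 in WT with IL-33). The part of all these cells in the differences above was not tested.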

How the results depend on the processing

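Of the single-gene values recomputed under settings other than leaving out a library, 265 kept their direction and side of the threshold, 12 lost their call and 2 turned. Under the filter of at least 5 FPKM in at least 2 libraries, which removes Egr2 and Egr3, 3 genes were called for IL-33 in STAT3-KO (5 in the report), 2 between genotypes with IL-33 (4) and 1 between responses (3). Over all genes, the genotypes in control gave 34 calls with a pseudocount of 0.1 and 7 when only those groups were fitted (55 in the report), and the responses gave 1149 without a filter (1799). Egr1 lost its call for IL-33 in STAT3-KO with a pseudocount of 0.1, without a filter and with libraries rescaled to equal sums (adjusted p = 0.0908, 0.0522 and 0.0653), and between genotypes with IL-33 under those and a pseudocount of 0.5 (adjusted p = 0.0662 to 0.169). Of the directions, 2 turned, both for differences that had not passed: Ier2 with IL-33 in STAT3-KO was -0.0029 with the length trend removed, and the response difference of Egr1 was -0.15 with a pseudocount of 0.1. The cause was not tested.

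Leaving out 1 library, the calls over all genes ranged from 2528 to 4344 for IL-33 in WT, 4245 to 6244 for IL-33 in STAT3-KO, 1 to 43 for the genotypes in control, 2141 to 4085 with IL-33 and 857 to 2048 for the responses. The lowest of these came without WT IL-33 replicate 2, STAT3-KO control replicate 2, either STAT3-KO control, WT IL-33 replicate 2 and WT IL-33 replicate 2 in that order. Among the 6 genes they ranged from 2 to 3, 3 to 5, 0 to 0, 2 to 4 and 1 to 3. Directions turned for Ier2 with IL-33 in STAT3-KO (-0.038 without STAT3-KO IL-33 replicate 1, highest 0.42) and for the response differences of Egr1 (-0.21 to 1.14) and Nr4a1 (-0.18 to 0.011). Same-numbered libraries did not deviate together over genes (correlations of -0.06 to 0.04). Whether they share a mouse, culture or day is not in the labels and cannot be told from these correlations. With the replicate number as a block, 4271, 6015, 37, 3813 and 1827 genes were called, no call of the 6 genes changed, and the response difference of Egr2 was 1.95 (adjusted p = 0.0120). Depth limits Nr4a2, Nr4a3 and the control levels of Egr2, Egr3 and Nr4a1, which rest on 30 reads or fewer per group.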
